A study of Homo sapiens with 12 samples.

Results

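The Notch receptors NOTCH1, NOTCH2 and NOTCH3, the ligands DLL1, DLL3, DLL4, JAG1 and JAG2 and the target genes HES1 and HEY1 were followed in islet-like cells labelled as knockouts of NKX2-2 or CLEC16A and in their wild types. These 10 genes were found by their symbols among the 60624 genes of each deposited count table, and all 10 were present in both. Bulk RNA-seq had been done on 12 libraries in 4 groups of 3: NKX2-2 knockout (KO) with its own wild type (WT), and CLEC16A KO with its own WT. NKX2-2 is a homeodomain transcription factor of islet cells, and CLEC16A is a regulator of mitophagy. In each experiment the KO was set against its own WT, and the difference between both KO effects was tested as well.

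All groups came from the human embryonic stem cell line MEL1 through expandable pancreatic progenitors, which had been kept on feeder cells. The deposited tables are marked as day 8 in a differentiation medium called R6. In every group, WT included, R6 held 0.2 µM Compound E, an inhibitor of gamma-secretase, the protease that releases the active part of a Notch receptor. It also held 0.2 µM LDN-193189 (a BMP receptor inhibitor), 10 µM 616452 (a TGF-beta receptor inhibitor), 1 µM thyroid hormone T3, 10 µM forskolin, 10 µM zinc sulfate, 10 µg/ml heparin, 0.5 mM vitamin C and B27 supplement. No group without the inhibitor was analysed here, so the values below are those of Notch genes under gamma-secretase inhibition. The labels name no edited clone and no separate cultures, so a difference between clones cannot be told apart from a KO effect, and p-values measure the spread between libraries, which may be technical.

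In Notch signalling, a Delta-like or Jagged ligand on 1 cell binds a receptor on its neighbour, and gamma-secretase then frees the intracellular domain of the receptor. That domain joins the DNA-binding protein RBPJ and switches on HES and HEY genes, which encode transcriptional repressors. In the embryonic pancreas this pathway is known for holding back NEUROG3, the factor that commits progenitors to an endocrine fate, and ligands such as DLL1 are found on the committed cells.

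The start of HES1 is shown because it is the textbook RBPJ target, and that of DLL4 because, of the 10 Notch genes, it changed most in the NKX2-2 experiment. Both sequences are the 120 bases before the gene's start in GENCODE 29, on the plus strand, from RefSeq (GRCh38.p14), with the RBPJ core TGGGAA in capitals where it occurs.
HES1, chr3:194136025-194136144: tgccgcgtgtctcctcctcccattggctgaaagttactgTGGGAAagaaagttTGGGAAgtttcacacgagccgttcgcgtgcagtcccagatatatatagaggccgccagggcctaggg
DLL4, chr15:40929213-40929332: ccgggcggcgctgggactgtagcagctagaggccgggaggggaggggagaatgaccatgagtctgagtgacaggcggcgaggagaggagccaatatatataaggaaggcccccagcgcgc
HES1 held TGGGAA 2 times on the strand of the gene, with first bases 81 and 67 bases upstream of that start. Searched on both strands over 250 bases upstream of the RefSeq start, the motif occurred at least once in 20.8% of 35116 RefSeq promoters and at least 2 times in 2.9%. NOTCH1, NOTCH2, NOTCH3, DLL4, JAG1 and JAG2 had no match in that window. DLL1, DLL3 and HEY1 had no entry in the promoter table.

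The NKX2-2 libraries held 16157481 to 20649976 counts each, fewer than the CLEC16A libraries with 31364272 to 33763795. The transcripts of the targeted genes did not check the labels, so KO means libraries labelled knockout throughout. NKX2-2 was at 93.4 to 96.6 CPM (counts scaled to library size) in its WT and 68.0 to 91.9 CPM in its KO, wholly below WT, with a difference of -0.32 on the log2 scale (adjusted p = 0.061, edgeR's quasi-likelihood test) that passed in 8 of 17 alternative fits with values from -0.76 to -0.25 among them. Its TPM was 57.4 ± 3.17 in WT and 34.6 ± 8.76 in KO (SD, n = 3). NKX2-2 also fell by 0.93 in the CLEC16A KO (adjusted p = 3.53e-10). CLEC16A had a mean of 32.3 CPM in its WT and 36.7 CPM in its KO, with overlapping groups. Its difference of 0.18 did not pass (adjusted p = 0.0949), so its transcript level could not check the label. The libraries numbered 3 stood apart in the NKX2-2 experiment, in KO and WT alike. In the longest of 5 classes of transcript length, the median log2 difference of library 3 from libraries 1 and 2 was -0.18 in KO and -0.23 in WT, and in the shortest class it was 0.19 and 0.20. Among the Notch genes NOTCH2, with an annotated transcript of 11389 bases, was lowest there, by -0.69 in KO and -0.77 in WT. NOTCH1, NOTCH3 and JAG1 were also lower in both of these libraries, by -0.32 to -0.53. No such slope was present in library 3 of the CLEC16A groups, where that difference in the longest class was 0.04 in KO and 0.01 in WT. Library 2 of the CLEC16A groups had a smaller slope against libraries 1 and 3. It ran from 0.08 in the shortest class to -0.05 in the longest in KO, and from 0.05 to -0.02 in WT.

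**Figure D1:**
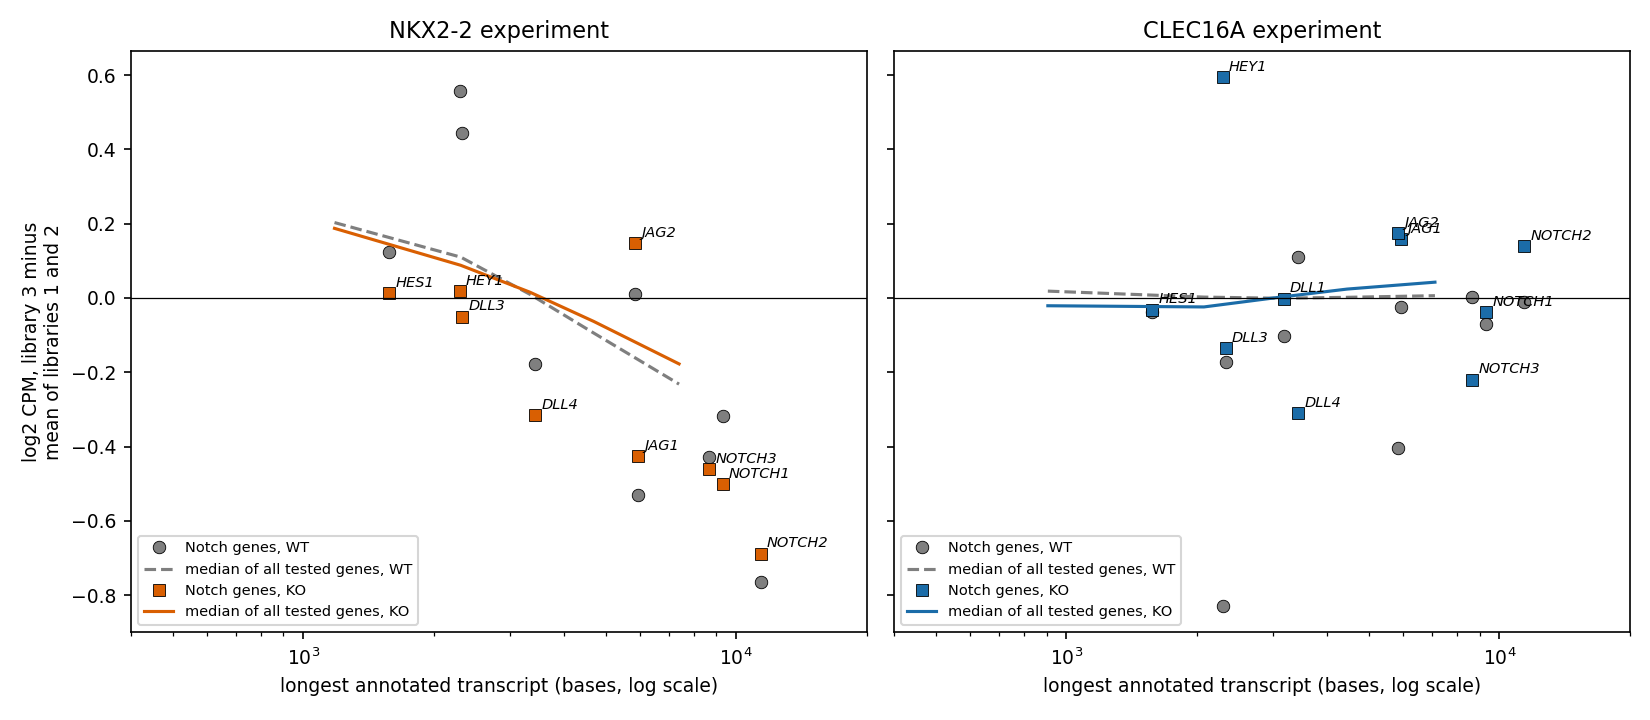
Log2 CPM in library 3 minus the mean of libraries 1 and 2 (y axis) against the longest annotated transcript (x axis, bases, log scale), for each Notch gene (points) and as the median of all tested genes in 5 classes of length (lines), in KO and WT. In the NKX2-2 experiment both lines fall with length and NOTCH2 lies lowest, while the lines of the CLEC16A experiment stay near 0.

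In the libraries labelled NKX2-2 KO, DLL4 fell sharply, JAG1, JAG2 and HEY1 fell less, and NOTCH1 and DLL3 rose. Levels are given as CPM, counts brought to a common library size after TMM scaling. By edgeR's quasi-likelihood test with Benjamini-Hochberg adjustment over all 17436 genes tested, 6 of 9 tested Notch genes passed the threshold of 0.05, 2 of them higher and 4 lower in KO. Of all tested genes 33.4% passed, 16.6% higher and 16.8% lower. KO lay wholly above WT for 2 of the 9 genes and wholly below it for 5, against 23.1% and 22.5% of all genes (45.5% in all). The 9 log2 changes had a median of -0.26, beside 0.03 over all genes. DLL4 was the only member that passed with a change of at least 2-fold, as did 12.8% of all genes.

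Of the receptors only NOTCH1 passed the test. NOTCH1 (chr9:136494433-136545786, minus strand, GRCh38 with GENCODE 29 models, as all positions below), the receptor best known from lymphoid and endothelial fate choices, was at 22.4, 21.8 and 17.7 CPM in WT libraries 1 to 3 and at 40.4, 37.8 and 27.6 CPM in KO. Every KO library lay above every WT library, with library 3 the lowest of both groups. NOTCH1 rose by 0.77 on the log2 scale (SE 0.15, adjusted p = 0.00174), or 1.71-fold, a call lost by limma on log2(TPM + 1) with no filter (adjusted p = 0.117). NOTCH2 (chr1:119911553-120069626, minus strand), a receptor of progenitor and duct cells, was at 52.0, 47.2 and 29.1 CPM in WT and at 61.9, 67.3 and 40.0 CPM in KO. These groups overlapped because library 3 was low in both. The log2 difference of NOTCH2 was 0.40 (SE 0.22, adjusted p = 0.18). It passed without KO library 3 (adjusted p = 0.0381) and, at 0.38, without both libraries numbered 3 (adjusted p = 0.0106), an alternative chosen after seeing the data. Reads of NOTCH2 may be shared with its near-identical NOTCH2NL copies. NOTCH3 (chr19:15159038-15200981, minus strand), a receptor typical of pericytes and smooth muscle, was at 32.4, 30.6 and 23.4 CPM in WT and at 35.9, 38.2 and 26.9 CPM in KO, with overlapping groups. Its difference of 0.23 (SE 0.16) did not pass (adjusted p = 0.296), with a 95% interval from -0.08 to 0.53.

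Ligands moved in both directions. DLL4 (chr15:40929333-40939073, plus strand), the Delta ligand of sprouting endothelium that is also made by other cells, was at 93.5, 93.9 and 82.9 CPM in WT and at 17.8, 13.2 and 12.3 CPM in KO. The highest KO library lay far under the lowest WT library. DLL4 fell by 2.65 on the log2 scale (SE 0.15, adjusted p = 4.66e-08), or 6.26-fold, and this call was kept in all 17 alternative fits. The summed level of 10 endothelial markers was 25.2 to 30.8 CPM in WT and 72.9 to 80.8 CPM in KO. Of that list 5 of 8 tested markers rose and PECAM1 fell by 0.71 (adjusted p = 0.0402). CLDN5 made up most of the sum, at 13.6 to 20.4 CPM in WT and 48.8 to 59.2 CPM in KO. Beside these, 10 endocrine markers summed to 4072 to 4510 CPM in WT and 1588 to 1758 CPM in KO, with 7 lower and 2 higher. In WT, CHGA (480 CPM, 4215 TPM) and INS (647 CPM, 3498 TPM) were low in counts beside their TPM. The part of either cell type in the DLL4 result was not tested. JAG1 (chr20:10637684-10673999, minus strand), a Jagged ligand of duct epithelium and vessel walls, was at 71.7, 71.2 and 49.4 CPM in WT and at 48.7, 48.4 and 36.1 CPM in KO. WT library 3 came within 1 CPM of the highest KO library, without overlap. JAG1 fell by 0.53 (SE 0.16, adjusted p = 0.0213), a call lost without WT library 1 (adjusted p = 0.0829) or WT library 2 (adjusted p = 0.0805).

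JAG2 (chr14:105140981-105168824, minus strand), the second Jagged ligand, was at 10.9, 11.6 and 11.3 CPM in WT and at 9.09, 6.60 and 8.60 CPM in KO. All KO libraries lay below WT. JAG2 fell by 0.48 (SE 0.16, adjusted p = 0.0317), and the call was lost without KO library 2 (adjusted p = 0.15), WT library 1 (0.0593), WT library 2 (0.0869) or WT library 3 (0.0544). DLL3 (chr19:39498895-39508481, plus strand) is a divergent Delta protein of endocrine and neuroendocrine cells that acts on Notch within its own cell rather than on neighbours. It was at 20.1, 17.4 and 25.5 CPM in WT and at 28.8, 28.2 and 27.5 CPM in KO. WT library 3 was the highest of its group and lay just under the KO libraries, which were close together. DLL3 rose by 0.43 (SE 0.14, adjusted p = 0.032), and lost the call without KO library 1 (adjusted p = 0.0831), KO library 2 (0.0919), WT library 1 (0.131) or WT library 2 (0.199). Without both libraries numbered 3 its rise was 0.60 (adjusted p = 0.0013).

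DLL1 (chr6:170282206-170306565, minus strand), the Delta ligand tied to endocrine commitment, was listed at 0 counts in all 6 NKX2-2 libraries. The deposited TPM values, which are scaled to a fixed total after correction for transcript length, gave DLL1 1.85, 1.77 and 1.62 in WT and 1.78, 1.30 and 1.15 in KO, with overlapping groups. The 0 counts therefore do not show absence of the transcript, and no count test was made. By limma on log2(TPM + 1) the difference of DLL1 was -0.20 (SE 0.13, adjusted p = 0.276). In all, 133 genes were at 0 counts in these 6 libraries with a mean TPM of at least 1. DLL1 overlaps FAM120B on the opposite strand. For the other 9 Notch genes, the counts per TPM in the NKX2-2 tables were 1.43 to 1.53 times those in the CLEC16A tables, close to the median of 1.53 over 11786 genes.

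Both targets had lower KO values, and HEY1 passed. HES1 (chr3:194136145-194138732, plus strand), the repressor that keeps pancreatic progenitors uncommitted, was at 51.8, 55.4 and 58.3 CPM in WT and at 45.0, 46.9 and 46.4 CPM in KO. All KO libraries lay below all WT libraries, yet the difference of -0.26 on the log2 scale (SE 0.10) did not pass (adjusted p = 0.0723). HES1 was called lower by DESeq2 (-0.29, adjusted p = 0.0462), in one fit of all 12 libraries (-0.24, adjusted p = 0.0358) and with a replicate block (-0.26, adjusted p = 0.016), 3 of 17 alternatives. HEY1 (chr8:79764010-79767863, minus strand), a related repressor of vascular and progenitor cells, was at 2.11, 2.43 and 3.39 CPM in WT and at 1.75, 1.25 and 1.50 CPM in KO, again without overlap. HEY1 fell by 0.82 (SE 0.28, adjusted p = 0.0377) on 152 WT and 80 KO counts in all. That call was lost without KO library 2 (adjusted p = 0.137), KO library 3 (0.067), WT library 2 (0.0636), WT library 3 (0.146) or both libraries numbered 3 (-0.61, adjusted p = 0.191). DESeq2 did not call DLL3 (adjusted p = 0.0535) or HEY1 (0.0788), upper-quartile scaling did not call JAG2 (0.0597) or HEY1 (0.0541), and limma on log2(TPM + 1) did not call JAG1 (0.0902).

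**Figure D2:**
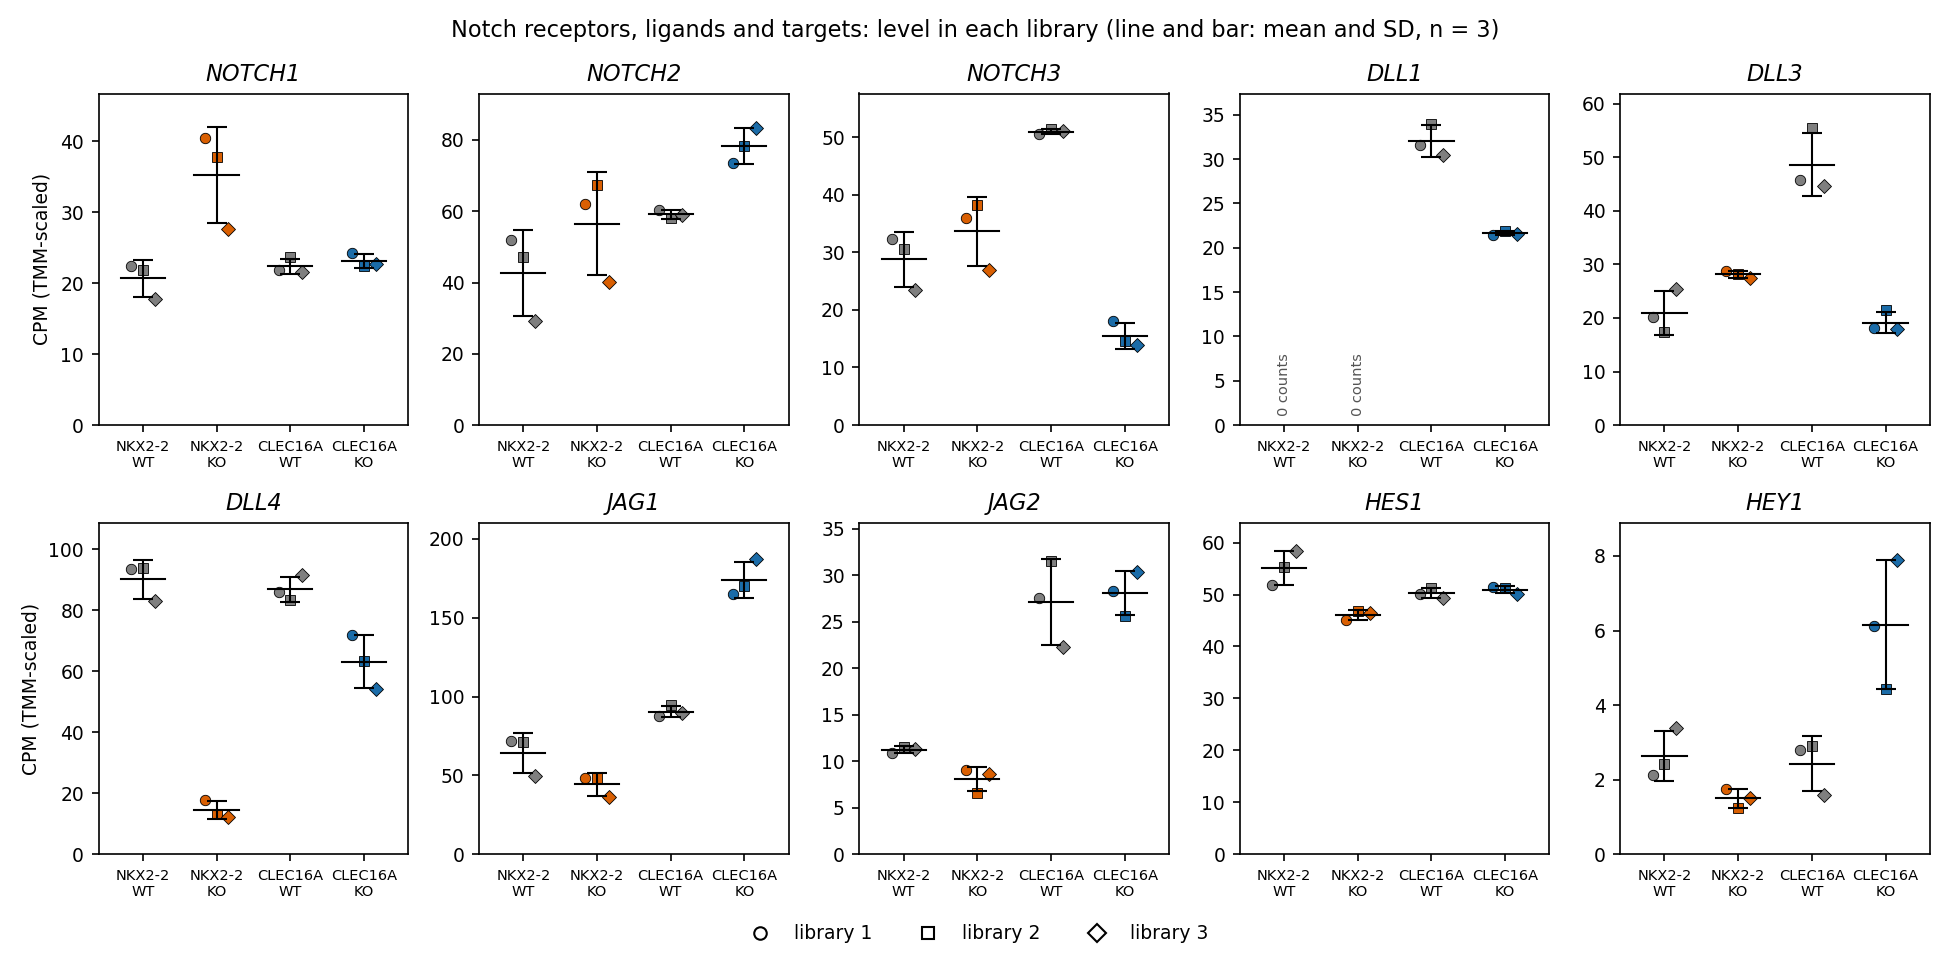
CPM (y axis) of each Notch gene in every library, KO and WT of each experiment side by side. Points are libraries, with the mean and SD of 3 as lines, and DLL1 is marked where it had 0 counts; DLL4 stands out in the NKX2-2 experiment (12.3 to 17.8 CPM in KO against 82.9 to 93.9 in WT) and NOTCH3, DLL3 and JAG1 in the CLEC16A experiment.

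In the libraries labelled CLEC16A KO, NOTCH3, DLL1, DLL3 and DLL4 fell and NOTCH2, JAG1 and HEY1 rose, while NOTCH1, JAG2 and HES1 did not pass the test. By edgeR's quasi-likelihood test over 19958 genes, 7 of 10 Notch genes passed, 3 higher and 4 lower. Of all genes 45.0% passed, 23.7% higher and 21.3% lower. KO lay wholly above WT for 3 genes and wholly below it for 4, against 27.4% and 26.4% of all genes (53.8% in all). NOTCH3, DLL3 and HEY1 passed with a change of at least 2-fold, as did 13.9% of all genes. The median of the 10 log2 changes was 0.03, beside -0.01 over all genes.

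Among receptors, NOTCH3 showed the largest change. It was at 50.5, 51.4 and 51.1 CPM in WT and at 18.1, 14.5 and 13.9 CPM in KO. The WT libraries were nearly level and all KO libraries lay far below them. NOTCH3 fell by 1.71 on the log2 scale (SE 0.10, adjusted p = 1.61e-12), or 3.28-fold. The summed level of 9 markers of pericytes and smooth muscle, cells in which NOTCH3 is typical, was 62.8 to 65.7 CPM in WT and 34.9 to 38.7 CPM in KO, and 7 of 8 tested markers of that list fell. Their part in the NOTCH3 result was not tested, and in bulk RNA fewer cells of a type cannot be told apart from less RNA per cell. NOTCH2 was at 60.5, 58.1 and 58.9 CPM in WT and at 73.4, 78.2 and 83.4 CPM in KO, without overlap. NOTCH2 rose by 0.41 (SE 0.07, adjusted p = 4.91e-05), but not past the threshold in one fit of all 12 libraries (adjusted p = 0.105) or by limma on log2(TPM + 1) (0.25, adjusted p = 0.0857). NOTCH1 was at 21.8, 23.6 and 21.6 CPM in WT and at 24.2, 22.5 and 22.7 CPM in KO. These groups overlapped, and the difference of 0.05 had a 95% interval from -0.13 to 0.23 (adjusted p = 0.699).

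The Delta ligands all fell. DLL3 was at 45.8, 55.4 and 44.7 CPM in WT and at 18.1, 21.4 and 17.9 CPM in KO, with a wide gap between the groups. DLL3 fell by 1.35 (SE 0.10, adjusted p = 1.49e-10), or 2.54-fold. DLL1, counted normally in this experiment, was at 31.6, 34.0 and 30.5 CPM in WT and at 21.4, 21.9 and 21.6 CPM in KO. The KO libraries were almost identical and all below WT. DLL1 fell by 0.57 (SE 0.09, adjusted p = 1.17e-05). DLL4 was at 86.0, 83.3 and 91.4 CPM in WT and at 71.7, 63.3 and 54.3 CPM in KO, and fell by 0.46 (SE 0.08, adjusted p = 9.26e-05). Each of these 3 calls was kept in all 16 alternative fits. The summed level of 10 endocrine markers was 28268 to 31262 CPM in WT and 14743 to 17063 CPM in KO, with all 10 markers lower. CHGA made up most of that sum, at a mean of 25233 CPM in WT and 14395 CPM in KO. Counts of INS fell far short of its TPM there, so the sum does not give endocrine transcript content. In WT, INS was at 624 CPM and 18859 TPM, beside 26468 TPM for CHGA. In KO, INS was at 183 CPM and 5291 TPM, beside 13627 TPM for CHGA. Whether the endocrine markers bear on the Delta ligands was not tested.

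JAG1 went the other way. It was at 87.5, 94.4 and 89.5 CPM in WT and at 165, 170 and 187 CPM in KO. Every KO library lay far above every WT library. JAG1 rose by 0.94 (SE 0.07, adjusted p = 7.55e-11), or 1.92-fold. Markers of duct and progenitor epithelium, where JAG1 is made, summed to 980 to 992 CPM in WT and 1248 to 1318 CPM in KO, and 8 of the 9 rose, SOX9 and SPP1 among them, while PDX1 fell. Their part in the JAG1 result was not tested. JAG2 was at 27.6, 31.5 and 22.3 CPM in WT and at 28.3, 25.6 and 30.4 CPM in KO, with full overlap and a difference of 0.05 (95% interval -0.16 to 0.27, adjusted p = 0.74).

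The targets parted. HES1 was at 50.2, 51.2 and 49.3 CPM in WT and at 51.4, 51.2 and 50.2 CPM in KO. In CPM all 6 libraries lay close together and the groups overlapped. In deposited TPM every KO library (59.5 to 60.7) lay below every WT library (64.2 to 66.5). On counts the difference of HES1 was 0.02, with a 95% interval from -0.12 to 0.16 (adjusted p = 0.856). The sign depended on scaling, at -0.0547 with upper-quartile scaling and -0.12 on log2(TPM + 1), without passing in either. HEY1 was at 2.81, 2.90 and 1.58 CPM in WT and at 6.11, 4.44 and 7.90 CPM in KO. The lowest KO library lay above the highest WT library. HEY1 rose by 1.34 (SE 0.24, adjusted p = 0.000103), or 2.53-fold, on 246 WT and 578 KO counts, and did not pass only by limma on log2(TPM + 1) with no filter (adjusted p = 0.0586), among 16 alternatives.

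**Figure D3:**
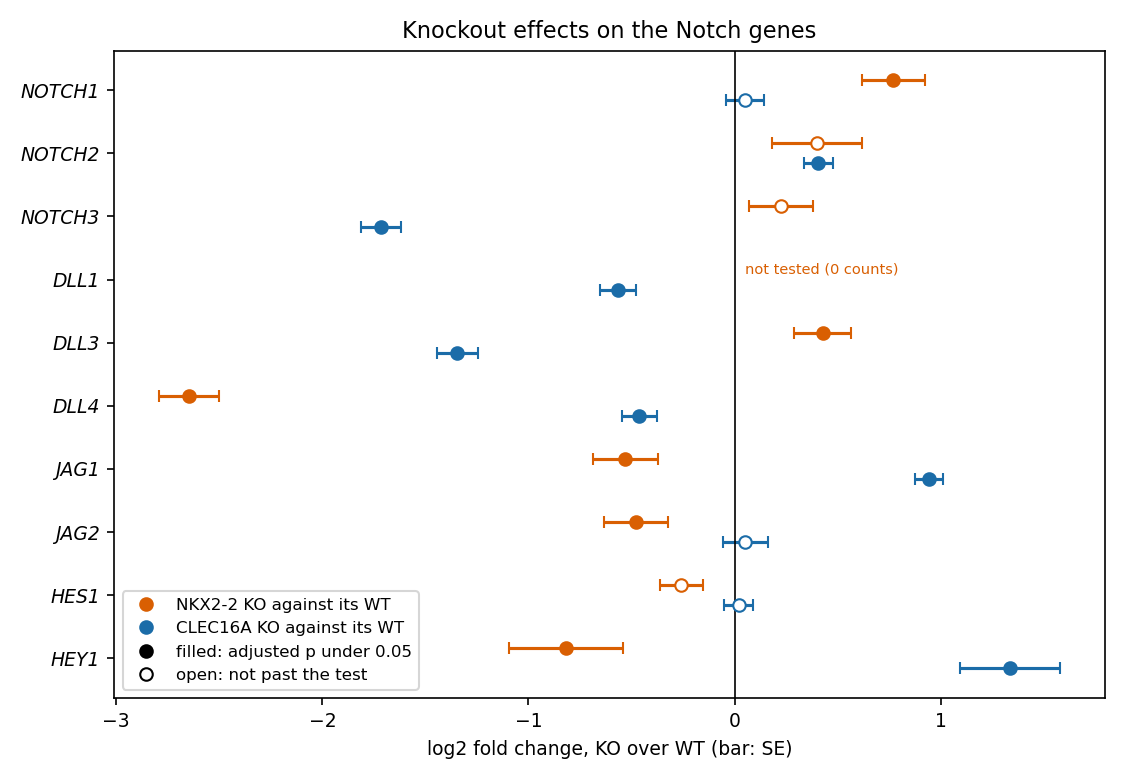
Log2 fold change of KO against WT (x axis) with its SE (bars) for each Notch gene in the NKX2-2 and the CLEC16A experiment, filled where adjusted p was under 0.05. DLL3, JAG1 and HEY1 lie on opposite sides of 0 in the experiments, and DLL4 lies below 0 in both; DLL1 has no value in the NKX2-2 experiment.

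The NKX2-2 KO effect minus the CLEC16A KO effect, tested in one edgeR fit of all 12 libraries over 20494 genes, passed for 7 of 9 Notch genes, 3 higher and 4 lower. Of all genes 38.2% passed, 17.8% higher and 20.4% lower. The difference both passed and reached 2-fold for 5 Notch genes, NOTCH3, DLL3, DLL4, JAG1 and HEY1, as for 20.7% of all genes. Opposite calls in both experiments were made for DLL3 (difference of effects 1.78, SE 0.18, adjusted p = 5.22e-08), JAG1 (-1.46, SE 0.17, adjusted p = 6.25e-07) and HEY1 (-2.14, SE 0.40, adjusted p = 0.000154). Their NKX2-2 calls were less firm, kept in 11 of 17, 12 of 17 and 7 of 15 alternative fits. Their CLEC16A calls were kept in 16, 16 and 15 of 16. DLL4 was lower in both KO groups, and more so in NKX2-2 KO (-2.18, SE 0.17, adjusted p = 8.47e-10). For NOTCH3 the difference was 1.95 (SE 0.19, adjusted p = 2.44e-08), with a fall passing in CLEC16A KO, and for NOTCH1 it was 0.73 (SE 0.18, adjusted p = 0.0022), with a rise passing in NKX2-2 KO. JAG2 passed narrowly (-0.52, SE 0.20, adjusted p = 0.0411). Its call was lost without library 1, 2 or 3 of the NKX2-2 WT, library 2 of the NKX2-2 KO, library 1 or 3 of the CLEC16A KO or library 1 or 3 of the CLEC16A WT, with adjusted p from 0.0545 to 0.147. NOTCH2 (0.01, 95% interval -0.53 to 0.54, adjusted p = 1) and HES1 (-0.27, SE 0.12, adjusted p = 0.0841) did not pass.

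Levels of different genes were compared only by TPM. Within each experiment's groups HES1 had the highest mean TPM of the 10 genes: 25.9 ± 0.86 in NKX2-2 WT, 22.0 ± 0.82 in NKX2-2 KO, 65.3 ± 1.15 in CLEC16A WT and 60.1 ± 0.61 in CLEC16A KO (SD, n = 3). In CLEC16A KO its range overlapped that of JAG1, at 59.6 ± 3.63 TPM. HEY1 had the lowest mean in 3 groups, and NOTCH3 in CLEC16A KO, at 3.53 ± 0.72 TPM, where HEY1, NOTCH1 and NOTCH3 followed each other with overlapping ranges. In NKX2-2 WT the order after HES1 was DLL4, then JAG1 and DLL3, which overlapped, and in NKX2-2 KO it was DLL3, JAG1 and NOTCH2. In CLEC16A WT, DLL4 and DLL3 overlapped and JAG1 came next. Listed genes made up 41.4% to 47.2% of the full TPM scale in NKX2-2 libraries, against 99.7% to 99.8% in those of the CLEC16A experiment, so TPM levels were not set against each other between experiments.

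The make-up of the ligand pool differed between KO and WT in both experiments. Of the summed TPM of the 5 ligands, DLL4 held 50.1% ± 1.61 in NKX2-2 WT and 14.8% ± 1.37 in KO (SD, n = 3). DLL3 held 19.1% ± 4.78 in that WT and 46.5% ± 2.71 in KO. JAG1 held 21.9% ± 3.66 and 27.2% ± 2.98. Thus the leading ligand was DLL4 in every NKX2-2 WT library and DLL3 in every KO library. The ligand sum was 36.8 to 42.2 TPM in WT and 19.0 to 25.8 TPM in KO. In the CLEC16A experiment JAG1 held 20.8% ± 0.44 in WT and 45.3% ± 3.24 in KO, while DLL3 went from 29.4% ± 2.39 to 12.8% ± 1.36 and DLL4 from 32.2% ± 3.05 to 25.9% ± 3.42. JAG1 led in all CLEC16A KO libraries, and its WT share was below those of DLL4 and DLL3. The ligand sum there was 157 to 171 TPM in WT and 130 to 134 TPM in KO.

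Among receptors, NOTCH3 held 44.2% ± 0.56 of their summed TPM in CLEC16A WT and 16.7% ± 3.27 in KO, and NOTCH2 held 38.4% ± 1.48 and 61.6% ± 3.82. The receptor sum was 26.9 to 29.7 TPM in that WT and 20.1 to 21.8 TPM in KO. In the NKX2-2 experiment NOTCH2 held 39.3% ± 3.48 in WT and 39.0% ± 1.62 in KO, with NOTCH1 at 23.7% ± 1.81 and 29.0% ± 1.64. Shares are descriptions and were not tested.

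**Figure D4:**
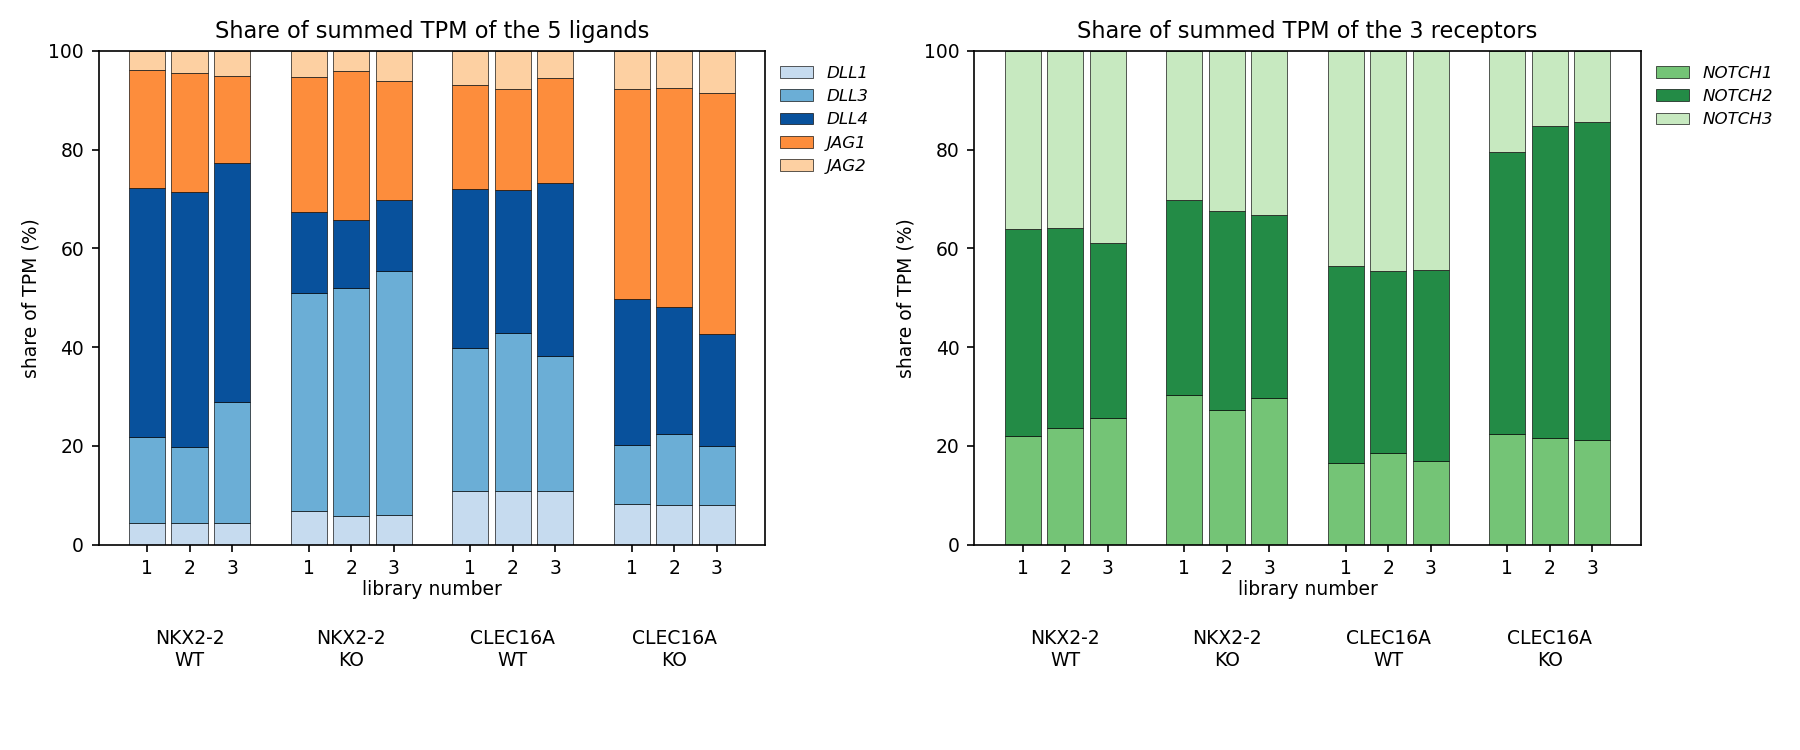
Share of each ligand in the summed TPM of the 5 ligands, and of each receptor in that of the 3 receptors (y axis, percent), stacked for each library (x axis). DLL4 leads the ligands in NKX2-2 WT (mean 50.1%), DLL3 in NKX2-2 KO (mean 46.5%) and JAG1 in CLEC16A KO (mean 45.3%).

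Of 54 other genes of the pathway, 50 were tested in the NKX2-2 experiment, where 5 rose and 11 fell (median -0.09, all genes 0.03), and 52 in the CLEC16A experiment, where 16 rose and 14 fell (median -0.07, all genes -0.01). Of all genes 16.6% were higher and 16.8% lower in the former, and 23.7% and 21.3% in the latter, and the lists below are to be read against these shares. The Delta-like protein DLK1, which lacks the domain that activates receptors, fell by 1.07 on the log2 scale in CLEC16A KO (adjusted p = 2.53e-11) and by 0.27 in NKX2-2 KO (adjusted p = 0.047). DLK2 fell by 0.81 in NKX2-2 KO (adjusted p = 0.00108). NOTCH4, like DLL1, was at 0 counts in the NKX2-2 libraries while its TPM there was above 0 (0.19 to 0.27), so it was not tested, and it differed by -0.46 in CLEC16A KO (adjusted p = 0.0889).

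Of 9 genes that cut the receptor, 5 rose and 1 fell in CLEC16A KO (45.0% of all genes called), and 2 fell in NKX2-2 KO (33.4% of all genes called). Rises in CLEC16A KO included 0.76 for NCSTN, a subunit of gamma-secretase (adjusted p = 3.13e-08), and 0.65 for the sheddase ADAM10 (adjusted p = 4.12e-08). In NKX2-2 KO, FURIN, which cuts the receptor precursor, fell by 0.65 (adjusted p = 0.000394) and NCSTN by 0.28 (adjusted p = 0.0445). Among 5 genes that add sugars to the receptor, 1 rose and 1 fell in NKX2-2 KO, the Fringe enzymes LFNG (0.45, adjusted p = 0.0347) and MFNG (-0.47, adjusted p = 0.029). In CLEC16A KO, 1 rose (POFUT1, 0.53) and 2 fell (POGLUT1, -0.43, and MFNG, -0.38), and LFNG was at -0.02 (adjusted p = 0.93).

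Of 13 genes of endocytosis and turnover, 4 rose and 7 fell in CLEC16A KO. DTX3 fell by 1.04 (adjusted p = 1.79e-11), the ligand ubiquitin ligase NEURL1 by 0.77 (adjusted p = 8.72e-10) and NUMBL, a relative of the Notch inhibitor NUMB, by 0.76 (adjusted p = 4.73e-08). In NKX2-2 KO, 1 rose and 2 fell: DTX1 (1.50, adjusted p = 0.0106, on 25 WT and 66 KO counts), NEURL1 (-0.62, adjusted p = 0.00194) and AAK1 (-0.50, adjusted p = 0.0281). Of 14 genes of the nuclear complex, 2 rose and 3 fell in NKX2-2 KO. BEND6, an RBPJ corepressor, rose by 1.77 (adjusted p = 8.9e-05) and the coactivator MAML2 by 0.94 (adjusted p = 0.00211), while its relative MAML3 fell by 0.76 (adjusted p = 0.0015). In the CLEC16A experiment 4 of these 14 rose and 2 fell, with the corepressor NCOR1 at 0.40 (adjusted p = 6.57e-05), CTBP1 at -0.24 (adjusted p = 0.00269) and RBPJ itself at 0.33 (adjusted p = 0.00304). RBPJ differed by 0.27 in NKX2-2 KO (adjusted p = 0.105).

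Of 10 other HES and HEY family and target genes, 7 were tested in the NKX2-2 experiment, where 1 rose and 1 fell, and 8 in the CLEC16A experiment, where 2 rose and 1 fell. BHLHE40, a repressor of the wider family, fell by 2.80 in NKX2-2 KO (adjusted p = 5.13e-07) and rose by 0.90 in CLEC16A KO (adjusted p = 0.000396). HEYL rose by 1.07 in NKX2-2 KO (adjusted p = 0.0351) on 39 WT and 77 KO counts, and that call was kept in 6 of 15 alternative fits. NRARP, a feedback inhibitor and direct target, did not pass in either (-0.30, adjusted p = 0.0955, and 0.15, adjusted p = 0.26), nor did HES4 (-0.13, adjusted p = 0.506, and -0.12, adjusted p = 0.43). BHLHE41 rose by 1.00 in CLEC16A KO (adjusted p = 4.76e-05). HES6, an antagonist of HES1, fell by 0.69 in CLEC16A KO (adjusted p = 0.000261) and was at 0.28 in NKX2-2 KO (adjusted p = 0.136). HES5 was too low to test.

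Of 6 proneural and endocrine commitment genes, among which NEUROG3 is known to be repressed by HES1, 2 rose and 2 fell in NKX2-2 KO, and 1 rose and 5 fell in CLEC16A KO. NEUROG3 rose by 2.83 in NKX2-2 KO (adjusted p = 8.16e-08), from a mean of 7.19 ± 1.72 to 51.4 ± 6.38 CPM (SD, n = 3), and fell by 0.99 in CLEC16A KO (adjusted p = 3.65e-06). INSM1 fell by 1.14 in NKX2-2 KO (adjusted p = 2.6e-05) and by 0.73 in CLEC16A KO (adjusted p = 1.04e-08), and PAX4 by 0.63 (adjusted p = 0.00082) and 1.22 (adjusted p = 3.08e-12). NEUROD1 fell by 0.52 in CLEC16A KO (adjusted p = 2.12e-07).

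**Figure D5:**
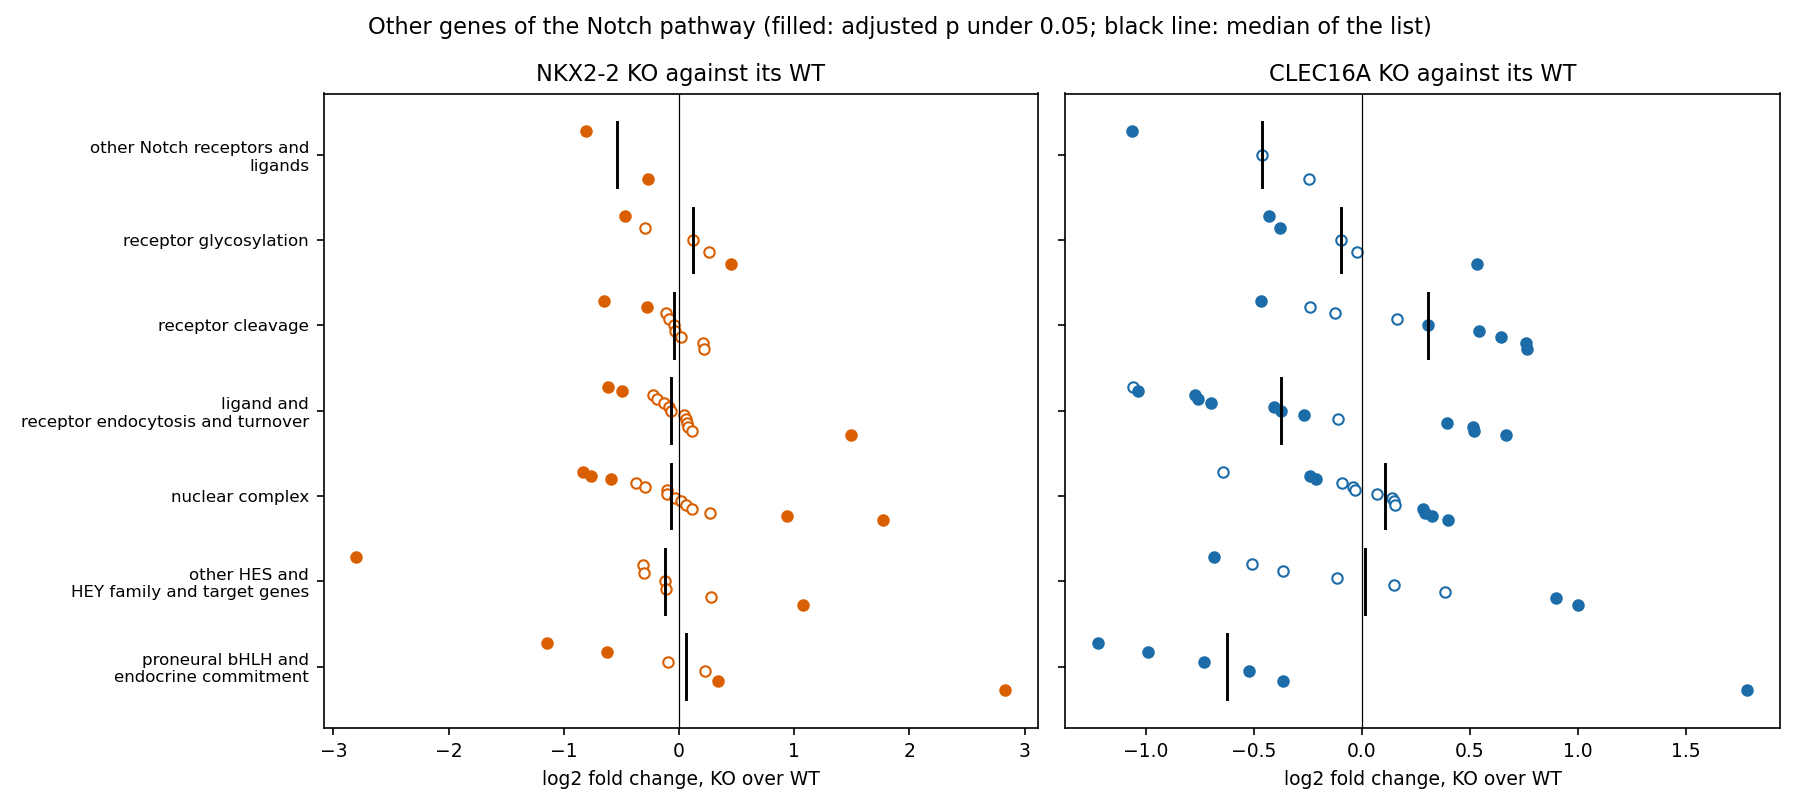
Log2 fold change of KO against WT (x axis, scaled separately in each panel) for each tested gene of 7 lists of other Notch pathway genes, filled where adjusted p was under 0.05, with a line at each list's median. Cleavage genes lie mostly above 0 in the CLEC16A experiment (5 of 9 higher), and the outermost points of the NKX2-2 experiment are NEUROG3 (2.83) and BHLHE40 (-2.80).

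Marker lists of other cell types moved with the groups. Mesenchymal markers summed to 2648 to 2966 CPM in NKX2-2 WT and 6899 to 7905 CPM in KO, with 9 of 10 higher, and to 166 to 177 CPM in CLEC16A WT and 46.5 to 55.4 CPM in KO, with 7 of 9 lower. Pericyte and smooth muscle markers, where NOTCH3 is typical, rose in NKX2-2 KO in 9 of 9 cases (204 to 228 CPM in WT, 434 to 522 CPM in KO), while NOTCH3 did not pass there. Endothelial markers summed to 25.3 to 26.6 CPM in CLEC16A WT, with ERG at 0, and 12.4 to 16.4 CPM in KO, beside the fall of DLL4. Of 6 tested markers 3 were lower, and PECAM1 was higher (1.58, adjusted p = 1.04e-05). CLDN5 made up most of the WT sum, at a mean of 17.0 CPM in WT and 6.26 CPM in KO. The lowest TPM of CLDN5 was 0 in both of these groups. Endocrine markers in the NKX2-2 experiment summed to 4072 to 4510 CPM in WT and 1588 to 1758 CPM in KO, with 7 lower and 2 higher. Counts of CHGA and INS fell short of their TPM there. Neuronal markers summed to 583 to 647 CPM in that WT and 664 to 757 CPM in that KO, with 3 of 8 higher and 1 lower (SNAP25, -0.65). STMN2, most of that sum at a mean of 467 CPM in WT and 554 CPM in KO, did not pass (adjusted p = 0.149). TUBB3 added little to that sum, at a mean of 2.29 CPM in WT and 2.27 CPM in KO. Its TPM was 143 in WT and 114 in KO, beside 179 and 213 for STMN2. In the CLEC16A experiment neuronal markers summed to 607 to 690 CPM in WT and 291 to 319 CPM in KO, with 7 of 8 lower. There TUBB3 was at 5.88 CPM and 537 TPM in WT and at 3.49 CPM and 234 TPM in KO. The neuronal sums, which hold little of TUBB3, stand beside DLL3, DLL1 and HES6. Duct and progenitor markers summed to 976 to 1061 CPM in NKX2-2 WT and 855 to 917 CPM in KO, beside the falls of JAG1 and HEY1, with 2 of 9 higher (SPP1, 2.73, and KRT7, 1.06) and 4 lower. KRT19, the bulk of that sum at a mean of 570 CPM in WT and 556 CPM in KO, did not pass (adjusted p = 0.847). The part of these cell types in the Notch values was not tested.

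The genes whose log2 CPM ran most like that of a Notch gene, after centring each experiment on its mean, were sought among 11786 genes over all 12 libraries. For JAG1 they were GLG1 (r = 0.992), EEF2K (0.992) and GRB10 (0.987). NOTCH1 ran most like NUAK1 (0.963), SNTB2 (0.958) and LAMB1 (0.956), and HES1 most like LYPD6B (0.969), TNFAIP8L1 (0.967) and EGFL7 (0.965). These correlations are descriptions over libraries that share groups and depth. DLL1 had no counts in the NKX2-2 libraries and was given none.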

How the data were processed

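RNA-seq values of 12 libraries were used as deposited. The authors deposited, for each experiment, raw counts per gene and TPM. The submitters' processing notes name StringTie 2.1.7, HISAT2 2.2.1, fastp 0.22.0 and the build hg38. Which program and annotation produced the counts, and whether strand was used, is not given in the sources used here. Reads of NOTCH1, NOTCH3, JAG1, JAG2 and DLL1 therefore cannot be separated from those of genes that overlap them. In the NKX2-2 tables the 45 Y copies of pseudoautosomal genes were dropped. Totals of 16157481 to 33763795 counts limit precision most for HEY1.

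Groups came from the sample titles. Counts were tested with the quasi-likelihood test of edgeR 4.0.16 (R 4.3.3) after TMM scaling and filterByExpr, with robust estimation, within each experiment and, for the difference of effects, over all libraries. P-values were adjusted by Benjamini-Hochberg over all genes tested, with a threshold of 0.05. SE was obtained by dividing the size of the log2 change by the root of the F statistic, and 95% intervals reach 1.96 SE to each side. As alternatives, RLE or upper-quartile scaling, no filter or one at 1 CPM, DESeq2 1.42.0, a joint fit of both experiments, a block for replicate number, limma 3.58.1 on deposited TPM (log2, pseudocount 1 or 0.1) and the omission of each library were tried. A fit without both libraries numbered 3 of the NKX2-2 experiment was added after seeing the data. The fits were also run on simulated counts. These had the same dispersion for every gene and no shift of libraries 3 by transcript length, so they cannot give the error rate of the fits here.

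Named genes are the 10 Notch genes, the 3 genes of each pathway list with the smallest p and NOTCH4, RBPJ, LFNG, HES4, HES5, HES6, HEYL, NRARP, DLK1 and NEUROG3. Some genes that this rule names are not reported here. SOX9, SPP1, PDX1, KRT7, KRT19, PECAM1, CLDN5, CHGA, INS, ERG, STMN2, TUBB3, SNAP25 and the medians by length were picked out after their values were seen. The genes and lists were chosen with earlier results of these data known. All replicates differed by more than sampling noise. Same-numbered KO and WT libraries did not deviate together in every pair (correlations 0.11, 0.03 and 0.32 in the NKX2-2 experiment, 0.01, 0.01 and -0.03 in the CLEC16A experiment), so the numbers were not taken as pairs.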

Additional observations from a re-analysis of the deposited data

Results flagged for a closer look

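The KO effects on 7 of 9 tested Notch genes differed between the experiments by the test of the difference itself. That test was edgeR on 12 libraries, NKX2-2 effect minus CLEC16A effect, with adjusted p under 0.05. Of all 20494 genes 38.2% passed it. The differences were 0.73 for NOTCH1, 1.95 for NOTCH3, 1.78 for DLL3, -2.18 for DLL4, -1.46 for JAG1, -0.52 for JAG2 and -2.14 for HEY1. Their adjusted p-values ran from 8.47e-10 for DLL4 to 0.0411 for JAG2. The call for JAG2 held in 8 of 18 alternative fits, and those of the other 6 genes in all 18. The experiments differ in depth, in the make-up of their tables and in their WT libraries, and the part of these in the differences was not tested.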

How the results depend on the processing

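Of 151 alternative values of Notch genes in the NKX2-2 experiment 118 kept direction and side of the threshold, 26 lost a call and 7 gained 1; of 160 in the CLEC16A experiment 141 were kept, 5 lost and 14 turned sign; of 162 differences of effects 146 were kept, 10 lost and 6 turned. In the NKX2-2 experiment DESeq2 called 1 Notch gene higher, and 2 were called lower with upper-quartile scaling, on log2(TPM + 1) and on log2(TPM + 0.1). With no filter on log2(TPM + 1), 1 Notch gene was called, 0 higher and 1 lower, beside 1624 genes higher and 1623 lower in all. Leaving out 1 library gave 2 to 6 called Notch genes, 1 to 3 higher and 1 to 4 lower, and 2121 to 3032 genes higher and 2177 to 3300 lower. In the CLEC16A experiment the genes called higher went from 4732 to 3047, 2986 and 2841 on log2(TPM + 1), on log2(TPM + 0.1) and with no filter, beside 4702, 4603 and 4016 lower (4253 on counts); with no filter 1 Notch gene was higher. Signs turned in that experiment for values that never passed: NOTCH1 was -0.0235 with upper-quartile scaling and -0.0718, -0.0851 and -0.0718 on the 3 TPM settings, JAG2 -0.0228, -0.0715, -0.0760 and -0.0715, and HES1 -0.0547, -0.12, -0.12 and -0.12. Leaving out 1 library gave -0.0775 to 0.17 for JAG2, -0.16 to 0.15 for LFNG and -0.22 to 0.0643 for HES4. The NOTCH2 difference of effects was -0.0054 without a count filter and -0.20 to 0.21 with 1 library left out. The cause was not tested. Not every library correlated best with its own number, so the numbers were not taken as pairs. Those numbered 3 in the NKX2-2 experiment did deviate together (r = 0.32), a shared shift that the main fit left in the spread. With a replicate block 8 Notch genes were called in that experiment, NOTCH2 (adjusted p = 0.000349) and HES1 (adjusted p = 0.016) being gained. Of all genes 4077 were then higher and 3960 lower, against 2888 and 2936 without the block. In the CLEC16A experiment the block gave 7 called Notch genes. Depth limits HEY1 most.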
